A study of Homo sapiens with 4 samples.

Results

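The genes described are 10 components and regulators of the contractile actin cytoskeleton: ACTA2, TAGLN, CALD1, TPM1, TPM2, CNN1, MYH9, MYLK, VCL and LPP. Their sites were all binding intervals that overlapped the gene body or the 50 kb on either side of it, which gave 120 of the 58827 distinct intervals in the data. Binding was mapped by CUT&RUN, a method that sequences the DNA cut free by a nuclease held at an antibody-bound protein. The antibody recognised a V5 peptide tag on the introduced protein. Both groups were BJ cells, an established line of human foreskin fibroblasts, taken 48 h after ectopic expression began. One group expressed V5-tagged SOX2 and the other V5-tagged SOX2dbd, written SOX2-DBD here, the DNA-binding domain without the rest of the protein. Each of the 2 groups had 2 samples, and the peak list analysed for each is attached to replicate 1. No list of replicate 2 and no list from cells without the introduced protein was analysed here, so no value below has a replicate error or an untreated background. RNA was not measured, so the labelled cell type could not be checked against marker genes, and nothing below concerns the expression of any gene.

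Fibroblasts pull on their surroundings through stress fibres, which are bundles of actin filaments crosslinked and drawn together by non-muscle myosin and anchored at focal adhesions. Many genes of this machinery are controlled by serum response factor, SRF, which binds the CArG box, together with its actin-sensing partners of the MRTF family. SOX2 is a transcription factor of the HMG-box family that bends DNA at a short A/T-rich sequence, can engage sites in closed chromatin, and is known for its part in pluripotency and reprogramming rather than in fibroblasts.

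Intervals were sorted into SOX2-only (found in the SOX2 list alone), shared (found in both lists) and SOX2-DBD-only. Shared intervals have identical positions and signal values in both lists, so the group in which those values were measured is not stated. Total signal is the authors' value, with a normalization and a library depth that are unknown. It is used here only to rank intervals and to describe them. Outside the member windows its lowest value was 1184 in shared and in SOX2-only intervals, and 2233 in SOX2-DBD-only ones.

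The sequences below are 200-bp windows at the centres of 8 of the 120 intervals, read 5′ to 3′ from the plus strand of GRCh37 (hg19), with matches to a searched motif in capitals. They were chosen because they show the site nearest to a canonical start, the lone TPM1 site, both SOX2-DBD-only sites, the strongest shared sites of ACTA2, MYLK and VCL, and a CALD1 site near an internal start that holds AP-1. The window reaches past the ends of an interval narrower than itself, as at the shared MYLK site of 157 bp. The motifs were a SOX core (ACAAAG or ACAATG), a longer SOX sequence (AACAATGG or AACAATAG), AP-1 (TGACTCA or TGAGTCA), TEAD (GGAATG), RUNX (TGTGGT), forkhead (TGTTTAC) and the CArG box, all sought on both strands. Only SOX core, AP-1 and CArG matches are capitalised.
CALD1 shared, upstream of the canonical start, chr7:134463942-134464141, CArG box and SOX core: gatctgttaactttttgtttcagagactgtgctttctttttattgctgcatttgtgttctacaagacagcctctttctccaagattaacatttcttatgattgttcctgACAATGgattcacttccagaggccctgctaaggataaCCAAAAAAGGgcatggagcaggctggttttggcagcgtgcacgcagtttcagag
CALD1 shared, intron, chr7:134604853-134605052, AP-1: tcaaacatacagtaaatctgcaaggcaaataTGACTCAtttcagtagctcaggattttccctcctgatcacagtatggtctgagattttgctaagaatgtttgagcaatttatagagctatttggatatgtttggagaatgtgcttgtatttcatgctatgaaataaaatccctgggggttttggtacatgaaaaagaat
ACTA2 shared, highest signal, chr10:90686635-90686834, SOX core: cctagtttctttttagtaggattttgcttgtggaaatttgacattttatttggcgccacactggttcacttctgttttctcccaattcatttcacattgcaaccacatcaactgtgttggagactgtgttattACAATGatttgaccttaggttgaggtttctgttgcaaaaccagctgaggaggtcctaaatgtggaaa
TPM1 SOX2-only, chr15:63358771-63358970, both forms of the SOX core and AP-1: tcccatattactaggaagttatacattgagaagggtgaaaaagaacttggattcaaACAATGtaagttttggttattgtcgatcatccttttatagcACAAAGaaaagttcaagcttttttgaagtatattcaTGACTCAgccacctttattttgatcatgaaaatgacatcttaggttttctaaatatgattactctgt
MYLK shared, highest signal, chr3:123451306-123451505, AP-1, with a SOX core just outside the interval: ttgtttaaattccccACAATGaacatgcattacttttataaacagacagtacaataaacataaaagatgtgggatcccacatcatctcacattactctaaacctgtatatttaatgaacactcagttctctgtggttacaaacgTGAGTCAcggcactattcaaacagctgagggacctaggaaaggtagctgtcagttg
MYLK SOX2-DBD-only, chr3:123476292-123476491, no capitalised motif: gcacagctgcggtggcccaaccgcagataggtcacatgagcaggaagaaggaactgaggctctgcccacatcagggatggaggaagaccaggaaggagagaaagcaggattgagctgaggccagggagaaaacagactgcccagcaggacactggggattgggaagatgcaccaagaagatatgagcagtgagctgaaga
VCL shared, highest signal, chr10:75794946-75795145, no capitalised motif: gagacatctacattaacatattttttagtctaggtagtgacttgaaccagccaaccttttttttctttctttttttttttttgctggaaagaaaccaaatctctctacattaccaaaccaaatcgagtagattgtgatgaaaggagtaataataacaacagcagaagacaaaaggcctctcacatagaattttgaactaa
LPP SOX2-DBD-only, chr3:188618514-188618713, SOX core on each strand and AP-1: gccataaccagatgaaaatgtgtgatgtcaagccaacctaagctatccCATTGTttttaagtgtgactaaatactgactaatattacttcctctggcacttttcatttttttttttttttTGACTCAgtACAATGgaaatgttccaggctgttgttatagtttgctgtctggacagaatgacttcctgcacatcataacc

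Of the 120 intervals, 79 were SOX2-only, 39 were shared and 2 were SOX2-DBD-only. ACTA2, TAGLN, CALD1, TPM1, MYLK, VCL and LPP had a SOX2 interval in their window, so 7 of 10 members were marked, against 69.5% of 20145 protein-coding genes under the same rule. In the SOX2-DBD list 6 members had an interval, against 39.3% of genes. Among genes with a window GC content of 38% to 42%, the range of VCL, CALD1, LPP and ACTA2, that share was 57.8%. By class, 6 members had a SOX2-only interval (65.1% of genes), 6 a shared interval (37.7%) and 2 a SOX2-DBD-only interval (4.73%). The share of members marked in the SOX2 list was therefore near that of genes in general. TPM2, CNN1 and MYH9 had none in either list. LPP alone held 53 of the 118 SOX2 intervals (44.9%), and without its window the counts were 43 SOX2-only, 22 shared and 1 SOX2-DBD-only.

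**Figure D1:**
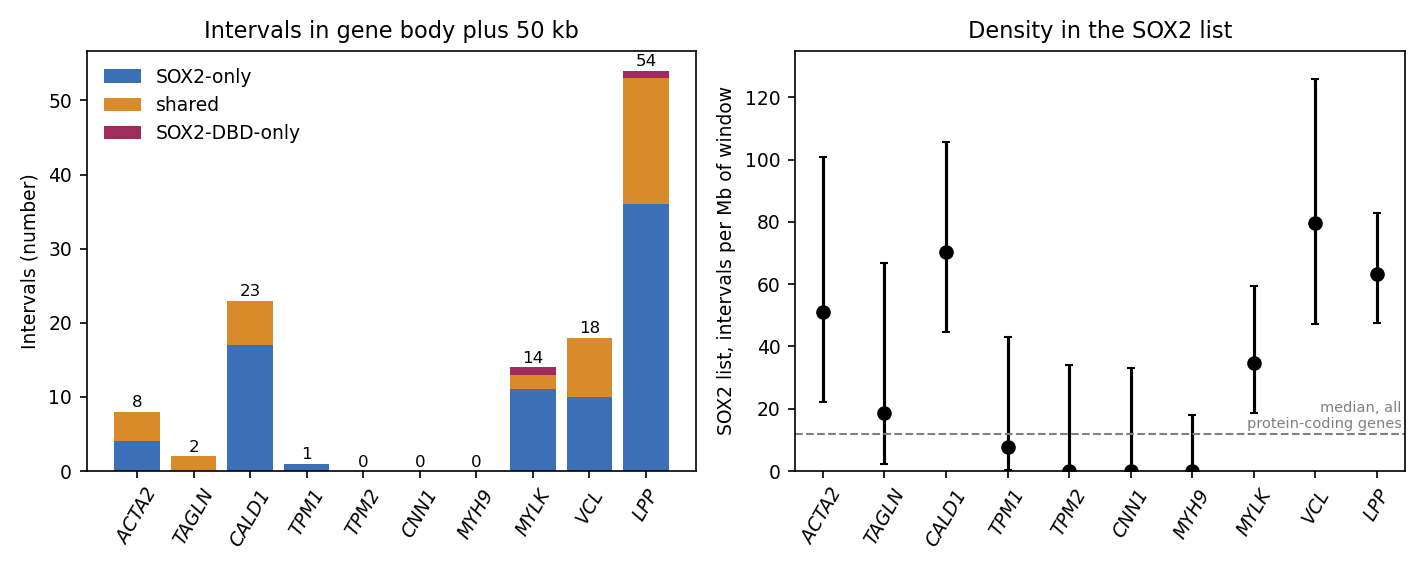
Left, the number of intervals in the window of each member (gene body plus 50 kb either side), stacked by class. Right, SOX2-list intervals per Mb of window with exact Poisson 95% intervals, which cover counting error only, and the median over all protein-coding genes as a dashed line. LPP had the most intervals (54), VCL the highest density (79.6 per Mb), and TPM2, CNN1 and MYH9 had none.

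Windows differed in length from 108 kb to 837 kb, so counts were also expressed per Mb. Over the 2.58 Mb of member windows the SOX2 list had 45.7 intervals per Mb (exact Poisson 95% interval 37.8 to 54.7) and the SOX2-DBD list had 15.9 (11.4 to 21.5). These intervals cover counting error only. The median over members was 26.6 per Mb in the SOX2 list, against 11.9 over all protein-coding genes, whose mean was 19.4. In the SOX2-DBD list the members' median was 13.2 per Mb, against 0 over all protein-coding genes, whose mean was 4.72. Density in the SOX2 list varied with the GC content of the window. The median was 30.8 per Mb for genes at 38% to 42%, the range of VCL, CALD1, LPP and ACTA2. It was 18.3 per Mb at 42% to 46%, the range of MYLK and TPM1. The members separated widely: VCL, CALD1, LPP and ACTA2 lay between 51.2 and 79.6 per Mb, MYLK at 34.7, TAGLN at 18.5 and TPM1 at 7.73. The Poisson intervals of VCL, CALD1, LPP and ACTA2 overlapped one another, so their order is not resolved.

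The thin-filament genes ranged from no interval to 70.4 per Mb. ACTA2 encodes smooth-muscle alpha-actin, the actin of myofibroblast stress fibres. Its window held 8 SOX2 intervals, 4 SOX2-only and 4 shared, at 51.2 per Mb (22.1 to 101), a density above that of 90.7% of protein-coding genes. The centres of 7 of the 8 lay in the body of STAMBPL1, a gene that overlaps and extends past ACTA2, and 5 were in the downstream flank of ACTA2. In the ACTA2 body there were 2 intervals. The shared one (chr10:90707154-90707484, total signal 1917) lay in intron 2 of the canonical transcript, 5.21 kb past the canonical start. Its centre was also over an exon of another annotated transcript. The SOX2-only one (chr10:90715183-90715631, total signal 1440) lay 2877 bp upstream of the canonical start. The strongest shared interval of the window (chr10:90686385-90687084, total signal 4782) was 7.75 kb beyond the 3′ end of ACTA2, within an intron of STAMBPL1. The strongest SOX2-only interval (chr10:90776602-90777411, total signal 4139) lay 25.5 kb upstream of the body, outside genes. Much of the binding assigned to ACTA2 by distance therefore lay over its neighbour.

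TAGLN encodes transgelin, a small actin-bundling protein that is an early marker of contractile differentiation. Its window of 108 kb held 2 intervals, both shared. One (chr11:117037035-117037481, total signal 3048) lay 32.6 kb from the body in an intron of PAFAH1B2, and the other (chr11:117109996-117110352, total signal 2755) lay 31.8 kb from the body over an exon of RNF214. Neither the TAGLN body nor the 30 kb around it held an interval.

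CALD1 encodes caldesmon, which binds actin and tropomyosin and restrains myosin. It was the most densely marked of the thin-filament genes, with 23 SOX2 intervals (17 SOX2-only and 6 shared) at 70.4 per Mb (44.7 to 106), above 97.1% of genes. Of these, 16 lay in the body, 5 upstream and 2 downstream. The centres of 15 of the 23 also lay within another annotated gene, one without a symbol that overlaps CALD1 and extends past it. CALD1 was the member with most sites near its own annotated starts, since 4 of its 6 shared intervals had their centre within 1 kb of one. For only the first of these was the nearest start that of a protein-coding transcript. The nearest starts of the others belonged to transcripts without a defined coding sequence or with a retained intron. The first (chr7:134463939-134464144) was 206 bp wide, had a total signal of 1271, and had its centre at -0.343 kb from the canonical start and 129 bp from the nearest annotated one. It was the only interval of any member within 1 kb of a canonical start. As printed above, its window held a SOX core (ACAATG) and, after a gap of 31 bp, a CArG box. Also close to a start were a pair in intron 3, chr7:134604792-134605114 (total signal 3668, 364 bp from an internal start, with an AP-1 sequence) and chr7:134605648-134606007 (total signal 2268, 511 bp from an internal start, with no SOX core or AP-1 in its central window). The strongest shared interval (chr7:134626074-134626542, total signal 4242) was in intron 7, 375 bp from a further internal start. The strongest SOX2-only interval (chr7:134674553-134675498, total signal 5634) lay 19.1 kb downstream, in AGBL3. No SOX2-only interval of CALD1 was within 1 kb of a CALD1 start. Intron 1 held 4 SOX2-only intervals and no shared one.

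TPM1 and TPM2 encode tropomyosins, the coiled coils that run along actin filaments and gate myosin access. TPM1 had a single interval, SOX2-only, within an intron of the gene and beyond the 3′ end of the canonical transcript (chr15:63358611-63359131, 521 bp, total signal 2808). Its central window, printed above, held both forms of the SOX core, 35 bp apart, and an AP-1 sequence 30 bp after them. The TPM1 density of 7.73 per Mb (0.196 to 43.1) was above that of 36.9% of genes. TPM2 had no interval, but the nearest, a SOX2-only interval over CD72 (chr9:35630849-35631612, total signal 3533), missed the 50 kb limit narrowly at 50.4 kb. CNN1 encodes calponin, which binds actin and slows the myosin cycle. It was the most isolated member, and its nearest interval, also SOX2-only (chr19:11770670-11771583, total signal 4121), lay 109.5 kb away.

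The motor genes split in the same way. MYH9 encodes the heavy chain of non-muscle myosin IIA, the main motor of fibroblast stress fibres. It had no interval in a window of 207 kb, and the nearest was a SOX2-only interval 51.6 kb away (chr22:36835699-36836063, total signal 1190). Among 2163 genes with windows of 200 to 300 kb, 89.7% had a SOX2 interval. With the limit at 100 kb, 9 of the 10 members had a SOX2 interval and 7 a SOX2-DBD interval. On the near side of the limit, the intervals closest to it were at 47.9 kb (VCL), 47.1 kb (MYLK) and 46.4 kb (VCL) from the body.

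MYLK encodes myosin light chain kinase, the calcium-dependent activator of myosin II. Its window held 11 SOX2-only, 2 shared and 1 SOX2-DBD-only interval, and the SOX2 density of 34.7 per Mb (18.5 to 59.4) was above that of 78.7% of genes. Only 2 of 13 SOX2 intervals were shared (15.4%, Wilson 95% interval 4.33 to 42.2). The shared interval of higher signal (chr3:123451328-123451484, total signal 2300) was 157 bp wide, lay in intron 11 and held an AP-1 sequence. Within its listed bounds it held no SOX core, since the one capitalised in the printed window lies before the interval begins. The region of maximum signal also lay outside those bounds, on the same side as that SOX core, offset by -158 bp from the centre. The strongest SOX2-only interval (chr3:123620276-123621642, total signal 4700) lay 17.1 kb upstream, in CCDC14. One SOX2-only interval (chr3:123383500-123383901, total signal 1720) was 203 bp from an internal MYLK start, that of a transcript without a defined coding sequence.

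The SOX2-DBD-only interval of MYLK (chr3:123475131-123477652) had the highest total signal of all 120 intervals, 7071, and was also the widest at 2522 bp. It lay in intron 4, 844 bp from an annotated MYLK start, that of a transcript without a defined coding sequence. Its central window had a GC content of 55.5% and none of the capitalised motifs. The median GC content was 37.5% in the members' shared intervals and 40% in the 918 SOX2-DBD-only intervals elsewhere. Of the latter, 40.8% had a SOX core in the central window. SOX2-DBD-only and SOX2-only intervals come from different lists, so that rank is no comparison between the proteins. The other SOX2-DBD-only interval, 9.69 kb beyond the LPP body (chr3:188618153-188619075, 923 bp, total signal 4404), had in its central window the SOX core on each strand, one of them within the longer SOX sequence, and an AP-1 sequence 2 bp from the other. Over their full widths both held SOX cores, 4 in the MYLK interval and 3 in the LPP interval.

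**Figure D2:**
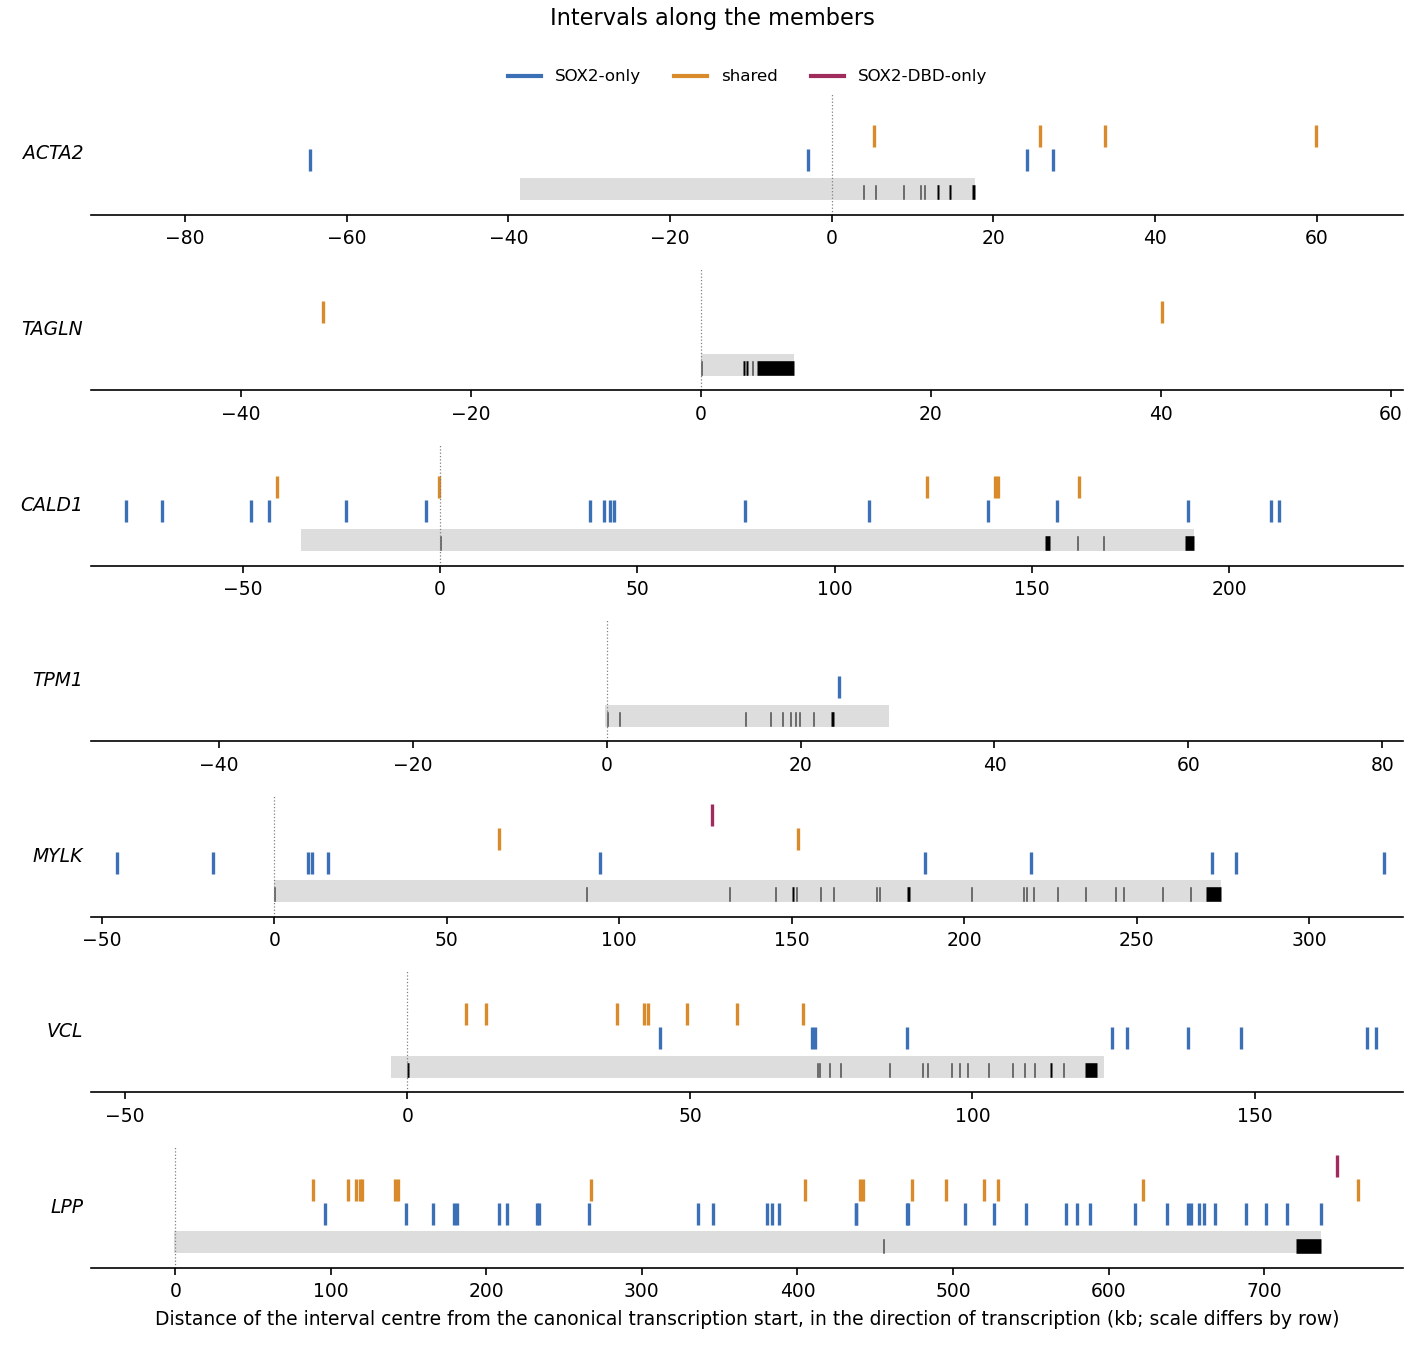
Position of each interval centre in kb from the canonical transcription start (dotted line), in the direction of transcription, for the 7 members with intervals; blue, SOX2-only; orange, shared; purple, SOX2-DBD-only. Grey bars are gene bodies and black boxes are canonical exons, and the scale differs by row. The 8 shared intervals of VCL lie between 10.4 and 69.97 kb, and in LPP the first interval lies at 88.9 kb.

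Both adhesion genes were among the densely marked members. VCL encodes vinculin, which couples talin to actin at focal adhesions. It had the highest SOX2 density of the members, 79.6 per Mb (47.2 to 126; above 98.4% of genes), and the highest SOX2-DBD density, 35.4 per Mb (15.3 to 69.7). Of 18 SOX2 intervals 8 were shared (44.4%, 24.6 to 66.3). All 8 shared intervals lay in the first introns of the gene, 5 in intron 1 and 3 in intron 2, between 10.4 and 69.97 kb past the canonical start. The first 5 intervals after the start were all shared and spanned 32.6 kb. Introns 1 and 2 are also the longest of VCL, at 44.7 and 27.5 kb, and held 11 of the 12 intervals in the body. The other class was placed differently, with 6 of 10 SOX2-only intervals downstream of VCL, 4 of them in AP3M1 and 2 in ADK. The strongest shared interval (chr10:75794743-75795348, total signal 4573) lay in intron 1, and the strongest SOX2-only one (chr10:75895314-75896632, total signal 6508) in AP3M1. The site nearest to any VCL start, 260 bp from an internal one, was SOX2-only (chr10:75802291-75802886, total signal 2709). That start belongs to a transcript without a defined coding sequence.

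LPP encodes lipoma-preferred partner, a LIM-domain protein of focal adhesions and cell contacts that is abundant in contractile cells. With 53 SOX2 and 18 SOX2-DBD intervals it ranked 17 and 18 among 20145 protein-coding genes by number. Its window of 837 kb is long, and its SOX2 density of 63.3 per Mb (47.4 to 82.8) was above that of 95.4% of genes. The median density of the 513 genes with windows over 500 kb was 15.7 per Mb. All 36 SOX2-only intervals and 16 of the 17 shared ones lay in the gene body. None was within 1 kb of an LPP start. The closest to an annotated LPP start was a SOX2-only interval 1394 bp from an internal one (chr3:188444233-188444667, total signal 2192). The closest to the canonical start was shared and lay 88.9 kb past it (chr3:187960574-187961046, total signal 2265), so the whole of intron 1 held no interval. The strongest shared interval (chr3:188345503-188346085, total signal 6442) lay in intron 7, and the strongest SOX2-only interval (chr3:188607819-188609053, total signal 6622) covered the end of the last exon.

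The classes were spread unevenly along LPP. Over 4 consecutive parts of equal length of the body the SOX2-only intervals numbered 5, 7, 10 and 14, and the shared intervals 7, 1, 7 and 1. In intron 2 a run of 6 shared intervals with no SOX2-only interval between them reached from 110.9 to 143.4 kb past the start and spanned 32.9 kb. That run was similar in extent to the 32.6 kb run of 5 in VCL. Intron 9 showed the reverse, with 9 SOX2-only intervals and 1 shared. No test of these arrangements was possible with 1 list per group.

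**Figure D3:**
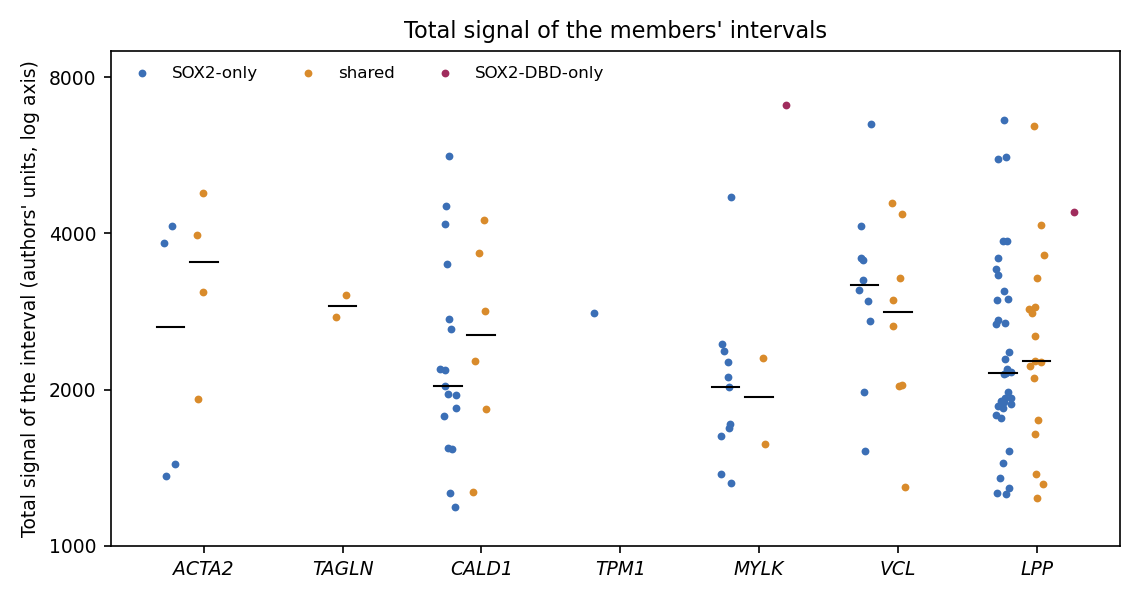
Total signal of each interval in the authors' units (log axis) by member, with class medians as black lines; blue, SOX2-only; orange, shared; purple, SOX2-DBD-only, each drawn side by side. Totals ran from 1189 to 7071, and the ranges of SOX2-only and shared intervals overlapped in ACTA2, CALD1, MYLK, VCL and LPP.

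By total signal the members' SOX2 intervals were ordinary for the list. Their median percentile was 46.6, or 50.1 without LPP, and 6 of 118 were in the upper 10 percent. SOX2-only intervals had a median total signal of 2185 (1189 to 6622) and shared ones 2657 (1238 to 6442), so the ranges overlapped. As listed, shared intervals were narrower, with a median width of 389 bp against 515 bp. The same held among all other intervals (373 and 559 bp). In some shared intervals the region of maximum signal lay outside the listed bounds. At the 323-bp CALD1 interval chr7:134604792-134605114 it was offset by -624 bp from the centre. How the bounds of shared intervals were set is not stated, so their widths and centres may not be those of whole peaks.

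Base composition ran alongside presence or absence of listed intervals. The windows of TPM2, CNN1 and MYH9, which had no interval, had GC contents of 50.5%, 51.9% and 50.5%, and those of the 7 marked members lay between 39.1% (ACTA2) and 48.4% (TAGLN). Over the genome, 38.8% of the 4507 genes with window GC content of 50% or more had a SOX2 interval, against 84.9% of the 5323 genes between 38% and 42%, the range that holds ACTA2, CALD1, LPP and VCL. Chromosomes 19 and 22, which carry CNN1 and MYH9, had 4.92 and 7.504 SOX2 intervals per Mb, the fewest of the autosomes. Window length followed presence less closely among the members. TAGLN, TPM2 and CNN1 belong to the 9624 genes with the shortest windows, of which 56.0% had a SOX2 interval. Of these members TAGLN was marked, and MYH9 had no interval in a window of 207 kb. The part of base composition or length in these absences was not tested.

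**Figure D4:**
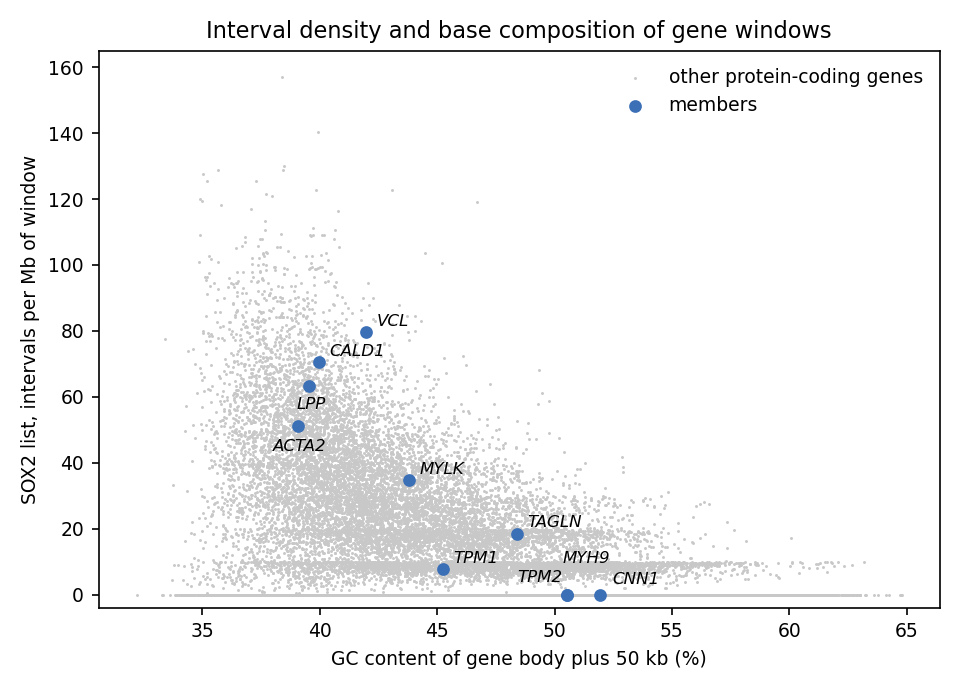
SOX2-list intervals per Mb of window against the GC content of that window for 20145 protein-coding genes (grey) and the 10 members (blue). The 4 members above 50 per Mb have GC contents under 42%, and the points of TPM2 and MYH9 coincide at 50.5% and 0 intervals.

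In the SOX2 list 33.1% of the members' intervals were shared with SOX2-DBD (39 of 118; 25.2 to 41.95), against 24.7% (24.3 to 25.0) of all other SOX2 intervals. The confidence intervals did not overlap, but they cover only the counting of sites, and sites are not replicates. Without VCL the share was 31.0% (22.8 to 40.6), an interval that includes the value of the other intervals. Within gene bodies it was 34.8% (25.8 to 44.9) and in the flanks 26.9% (13.7 to 46.1), which do not differ beyond counting error. Of the members with more than 2 intervals, MYLK had the lowest shared share (15.4%) and ACTA2 the highest (4 of 8).

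Most of the members' sites were intronic. Introns held 83.1% of the SOX2 intervals (75.3 to 88.8), against 64.2% elsewhere, and 5.93% lay outside genes, against 24.6%. Since the windows were drawn around genes, a higher share within genes follows from the rule. Only 5.08% were within 1 kb of a transcription start of any gene (6.77% elsewhere). Among shared intervals this share was 4 of 39, all 4 in CALD1.

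The SOX core was present in the central 200 bp of 52.5% of the members' SOX2 intervals (62 of 118; 43.6 to 61.3), against 28.0% (20.7 to 36.7) of windows 10 kb downstream of them. The GC content of those downstream windows was not computed, so the part of base composition in this contrast was not tested. All other SOX2 intervals had the SOX core in 47.3%, within the counting error of the members' value, and windows 10 kb downstream of those in 27.7%. SOX2-only and shared intervals of the members had it in 55.7% and 46.2%. By member it was present in the central windows of 9 of 13 SOX2 intervals of MYLK, 5 of 8 of ACTA2, 12 of 23 of CALD1, 27 of 53 of LPP, 7 of 18 of VCL, 1 of 2 of TAGLN and 1 of 1 of TPM1. Centring the window on the region of maximum signal gave 44.9% in the members and 49.0% elsewhere, which turns the direction of that difference. The longer SOX sequence occurred in 0.847% of members' intervals and 3.62% of others, and forkhead, the motif of FOXA factors, in 2.54% and 4.34%.

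AP-1, the sequence bound by FOS and JUN proteins, which is common at active elements of fibroblasts, was found more often in the shared class. It was found in the central windows of 14 of the 39 shared intervals (35.9%, 22.7 to 51.6) and in 6 of the 79 SOX2-only intervals (7.59%, 3.53 to 15.6). Outside the member windows shared intervals also had it more often, in 16.9% against 6.58% of SOX2-only ones. That direction is therefore not particular to these genes. The members' shared value was above that of all other shared intervals (16.9%, 16.3 to 17.5), and windows 10 kb downstream of the members' shared intervals held AP-1 in 2.56%. Each member with shared intervals contributed: ACTA2 1 of 4, TAGLN 1 of 2, CALD1 2 of 6, MYLK 1 of 2, VCL 3 of 8 and LPP 6 of 17. Against other shared intervals the margin depended on the window. In windows of 100 bp the shares were 15.4% (7.25 to 29.7) and 9.06%, and in windows centred on the maximum 28.2% (16.5 to 43.8) and 18.0%, so in both cases the members' interval included the value elsewhere. The median GC content of the members' shared windows was 37.5%, against 35.0% in other shared intervals and 34.5% in the members' SOX2-only intervals.

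**Figure D5:**
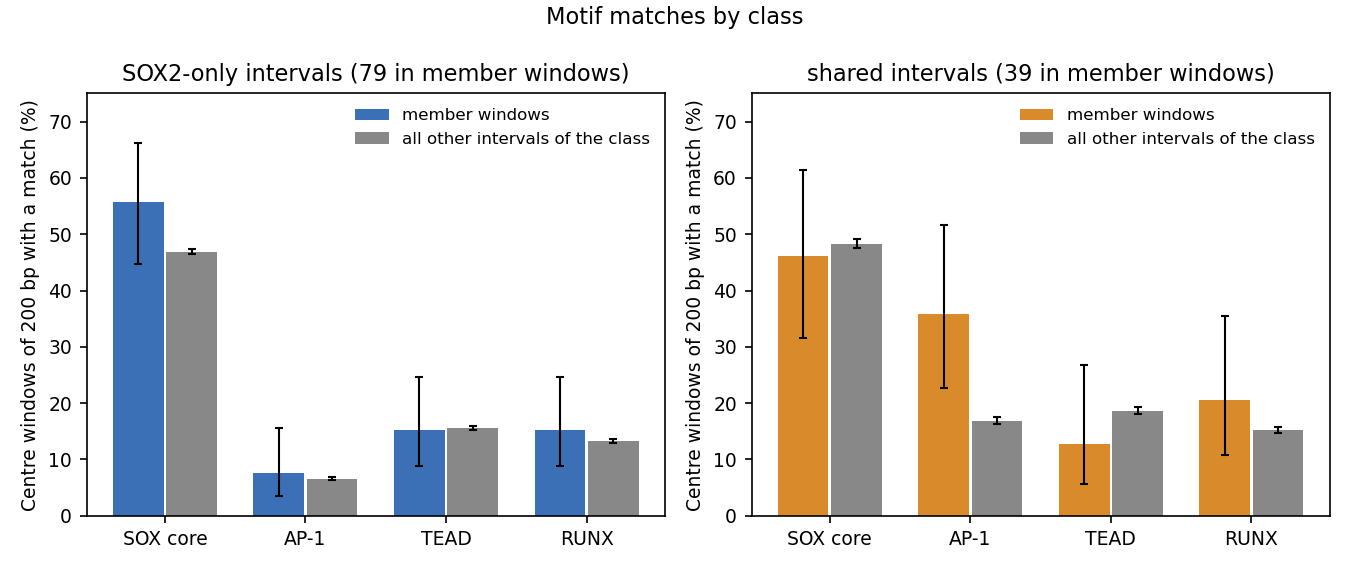
Share of central 200-bp windows with a SOX core, AP-1, TEAD or RUNX match, for SOX2-only intervals (left) and shared intervals (right); coloured bars, member windows; grey bars, all other intervals of the class; error bars, Wilson 95% intervals for counting error only. AP-1 in shared intervals is the pair whose error bars stand apart (35.9% against 16.9%). In all, 7 motifs were searched, and AP-1 had been singled out in earlier results of these data.

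For the other motifs the members' confidence intervals included the value elsewhere. TEAD, the partner of YAP and TAZ in mechanical signalling, was matched in 14.4% of members' SOX2 intervals and 16.3% of others, and RUNX in 16.9% and 13.8%. The CArG box was matched in 2 of 118 (1.69%, 0.466 to 5.97), against 1.34% elsewhere and 2 of 118 in the windows 10 kb downstream. Both matches were in shared intervals, the CALD1 promoter site printed above and one in intron 2 of VCL (chr10:75827625-75828053, total signal 2657).

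A seventh column, present only for shared intervals in the SOX2 list, holds whole numbers whose meaning is not stated. It was 1 or more in 20 of the members' 39 shared intervals (51.3%, 36.2 to 66.1) and in 34.4% of the other shared intervals. Among members' shared intervals with a SOX core in the central window 12 of 18 had a value of 1 or more, and without one 8 of 21. In other shared intervals the corresponding shares were 44.1% and 25.3%. The members' highest value, 3, belonged to the strongest shared interval of VCL. That interval had no SOX core in its central window but 4 over its full width.

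The down-sampled SOX2 list, which was not used to choose the sites, had an interval in the windows of 6 members, against 62.1% of protein-coding genes, and only TAGLN of the 7 marked members was without one. It recovered 61.9% of the members' SOX2 intervals (73 of 118; 52.9 to 70.1), against 64.3% of the others. Recovery was 16 of 23 in CALD1, 13 of 18 in VCL, 32 of 53 in LPP, 7 of 13 in MYLK, 4 of 8 in ACTA2, 1 of 1 in TPM1 and 0 of 2 in TAGLN. Of the members' SOX2-only intervals 62.0% were recovered, and of the shared ones 61.5%.

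A wider list of 42 genes of actin, myosin, adhesion and SRF signalling was counted by the same rule, and shared no interval with the members' windows. A SOX2 interval was present for 34 of them (81.0%, against 69.5% of protein-coding genes) and a SOX2-DBD interval for 26 (61.9%, against 39.3%). Their median SOX2 density was 14.8 per Mb, against 11.9 over all protein-coding genes, in windows with a median length of 145 kb against 127 kb. PALLD, which encodes the actin-bundling protein palladin, had the most, with 39 SOX2 intervals of which 17 were shared (73.4 per Mb). PDLIM5, a PDZ and LIM protein of actin fibres, had 24 (75.9 per Mb). They were followed by the kinase gene ROCK2, whose product activates myosin, and SYNPO2, an actin-bundling protein gene, with 19 each. A SOX2-DBD-only interval was found for CNN3, CSRP1, MRTFB and SYNPO2. Without any interval were ACTB, ACTN4, CNN2, DES, FLNA, MYL9, SMTN and SRF. Shared intervals made up 67 of 218 (30.7%, 25.0 to 37.1). Of the 12 listed genes with a window GC content of 50% or more, 5 had a SOX2 interval (ACTG1, CFL1, PDLIM7, TNS1 and TPM4), and of the 30 others 29 had one, all but MYL9.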

How the data were processed

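CUT&RUN peak lists of V5-tagged SOX2 and SOX2-DBD in BJ fibroblasts were used. The submitters' processing notes name Bowtie2 2.3.4.1, SAMtools, bedtools 2.27.1, SEACR 1.3, deepTools 3.5.0 and hg19, without role or order. Each interval has a total and a maximum signal, deposited by the authors, and shared intervals carry a deposited whole-number score in column 7. Normalization, thresholds, pooling of replicates, depth and the method of down-sampling are not given in the sources used here. The down-sampled list gives positions only.

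Exact duplicates were counted once. Intervals were assigned by an overlap of 1 bp with GENCODE release 44 gene bodies on GRCh37 plus 50 kb. For gene counts, 18 gene windows without determined bases in this sequence were left out. Canonical start and exons are those of the transcript that GENCODE tags as canonical. Shares have Wilson and densities exact Poisson 95% intervals. There was 1 list per group, so no test was made. Code was tested on simulated data with samtools 1.23.1, matplotlib 3.10.9, scipy 1.17.1 and python 3.11.15 (pyfaidx 0.9.0.4, pandas 2.3.3, numpy 2.4.6).

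All members were named, with each member's strongest interval per class, the interval nearest its start, those within 1 kb of a member start and those SOX2-DBD-only. In the wider list, the genes named were those with most intervals, with none or with a SOX2-DBD-only one. Members, lists and motifs were chosen with earlier results of these data known. Alternatives covered flank, merging, signal rank, list, annotation and motif window.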

Additional observations from a re-analysis of the deposited data

How the results depend on the processing

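No paired analysis was possible because 1 list per group was analysed, and for the same reason no replicate could be left out. Of 90 alternative values for 11 results, 70 stayed within 1.5 times the count or within the 95% interval and 20 moved. Keeping the upper 50% of intervals by total signal left 39 SOX2-only and 16 shared intervals and 21.3 SOX2 intervals per Mb, fewer by construction. With the down-sampled list in place of the SOX2 list there were 50 SOX2-only, 24 shared and 17 SOX2-DBD-only intervals, and 28.6 per Mb. Without the LPP window, an alternative chosen after seeing the data, as was leaving out VCL, there were 43, 22 and 1, at 37.2 per Mb, with 72.3% in introns. Gene bodies alone gave 58.1 per Mb and 1 SOX2-DBD-only interval, and a 10 kb flank 56.0 per Mb. Intronic shares were 64.4% with starts extended to 5 kb and 89.0% with protein-coding transcripts. In 100-bp windows the SOX core share was 30.5% and the AP-1 share of shared intervals 15.4%, shorter windows holding fewer matches by construction, and the 8-letter SOX sequence gave 0.847%. Depth is unknown, so an absent interval, as at TPM2, CNN1 or MYH9, is not a measured absence of binding.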
